A study of Rattus norvegicus with 16 samples.

Results

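Transcripts of 7 genes for stretch-responsive ankyrin repeat, LIM and Xin proteins were followed through the tibialis anterior muscle of wild-type and dystrophic rats. The genes were the muscle ankyrin repeat genes Ankrd1, Ankrd2 and Ankrd23, the LIM genes Csrp3 and Fhl1, and the Xin repeat genes Xirp1 and Xirp2. They were chosen by name from a list of known family members, with earlier results of these data known. Among 31141 genes measured, 6 carried a listed symbol, and Fhl1, whose row had no symbol, was found by its description, which made 7. All 7 passed the filter on low values (at least 1 FPKM in at least 4 libraries). FPKM stands for sequenced fragments per kilobase of gene and per 1000000 fragments, so levels can be compared between genes of different length.

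The samples were 16 mRNA libraries from Wistar-Imamichi rats. The group WT_ND held 4 libraries of wild-type rats on the normal diet (ND), DMD_ND held 6 of rats with the genotype Dmd on the same diet, and DMD_KD held 6 of Dmd rats on the diet called MCTKD. The labels do not spell out MCTKD, a name commonly used for a ketogenic diet rich in medium-chain triglycerides. All 3 groups had their diet from weaning until 9 months of age, and no wild-type group on MCTKD was analysed. Dmd encodes dystrophin, which ties the cytoskeleton of the muscle fibre to the matrix around it, and its loss causes Duchenne muscular dystrophy; the labels do not describe the mutant allele. Whether every library is 1 animal is not stated either, and the tests therefore speak of the variation among these libraries, part of which may be technical.

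The muscle ankyrin repeat proteins bind the N2A segment of titin, the giant elastic protein of the sarcomere, and are also found in the nucleus, so that they are regarded as a link between stretch and gene expression. Ankrd1 (CARP) is a heart protein of low level in healthy limb muscle that is known to rise after injury, denervation and overload. Ankrd2 (Arpp) is known from slow fibres and from stretched muscle, and Ankrd23 (DARP) from skeletal muscle and heart. Csrp3 (muscle LIM protein) sits at the Z-disc and Fhl1 is a LIM protein of the sarcomere that also binds titin. Xirp1 (Xin) and Xirp2 (myomaxin) bind actin filaments at myotendinous junctions and at sites of fibre damage.

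The promoter windows of 4 genes are shown here because Xirp1 and Xirp2 shared a motif and because Ankrd23 and Fhl1, of the families in which Ankrd1 and Csrp3 rose most, each held another. RefSeq (build GRCr8) gave promoter windows, 250 bases before to 50 after a start site, for 5 of the 7 genes; Ankrd1 and Csrp3 had no entry. Windows were searched on both strands for the MEF2 site, the CArG box bound by SRF, the MCAT element CATTCC bound by TEAD factors and the E-box CANNTG. The windows are chr8:128634962-128635261 (minus strand) for Xirp1, the first of its 3, chr3:72533936-72534235 (plus strand) for Xirp2, chr9:46274461-46274760 (minus strand) for Ankrd23, and chrX:139638246-139638545 (plus strand) for Fhl1, the first of its 2. They are written 5′ to 3′ on the gene's strand, and capitals mark a MEF2 site in both Xin genes, an MCAT element in Ankrd23 and a CArG box in Fhl1.
Xirp1: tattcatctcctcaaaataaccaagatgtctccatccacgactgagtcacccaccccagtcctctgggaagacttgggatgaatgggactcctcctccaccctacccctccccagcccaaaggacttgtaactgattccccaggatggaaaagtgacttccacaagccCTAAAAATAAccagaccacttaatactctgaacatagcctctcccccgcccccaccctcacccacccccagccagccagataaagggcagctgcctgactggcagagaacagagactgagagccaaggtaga
Xirp2: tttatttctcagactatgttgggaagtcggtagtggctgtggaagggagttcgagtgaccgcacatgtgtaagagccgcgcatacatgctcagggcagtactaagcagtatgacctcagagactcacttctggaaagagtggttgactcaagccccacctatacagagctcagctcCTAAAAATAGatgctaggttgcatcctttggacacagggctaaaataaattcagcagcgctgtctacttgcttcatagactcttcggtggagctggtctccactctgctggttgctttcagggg
Ankrd23: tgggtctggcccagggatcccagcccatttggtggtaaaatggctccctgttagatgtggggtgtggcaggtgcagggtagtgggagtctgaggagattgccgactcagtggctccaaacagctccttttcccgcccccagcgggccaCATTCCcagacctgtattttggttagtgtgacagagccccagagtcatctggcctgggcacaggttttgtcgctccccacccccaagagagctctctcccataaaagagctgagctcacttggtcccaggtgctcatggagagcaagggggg
Fhl1: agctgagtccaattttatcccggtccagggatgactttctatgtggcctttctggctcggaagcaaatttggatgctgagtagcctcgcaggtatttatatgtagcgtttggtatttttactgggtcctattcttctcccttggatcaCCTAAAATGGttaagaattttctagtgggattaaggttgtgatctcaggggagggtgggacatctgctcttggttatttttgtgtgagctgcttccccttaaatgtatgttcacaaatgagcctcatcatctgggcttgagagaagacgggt

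In the windows shown both Xin genes held a MEF2 site at nearly the same place, CTAAAAATAA at -82 to -73 from the Xirp1 start and CTAAAAATAG at -74 to -65 from the Xirp2 start. Window 2 of Xirp1 overlaps the window shown and held the same site, and window 3 held only an E-box. A MEF2 site was found in 3.29% of all 33469 rat promoter windows of this length. The MCAT element of Ankrd23 lay at -102 to -97, and 14.2% of windows held one. The CArG box of Fhl1, CCTAAAATGG, lay at -102 to -93, and 1.64% of windows held one. The other Fhl1 window held only E-boxes. These percentages are per window and not per gene. The Ankrd2 window held none of these and no more than E-boxes, which 72.1% of windows have. No motif overlapped another among those in capitals. A match of letters is a description and not evidence that a factor binds there.

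Assigned reads ranged from 17125084 to 28116085 a library. Dmd itself stood at 5.95, 11.9, 4.13 and 7.30 FPKM in WT_ND replicates 1, 3, 4 and 9, at 1.37 to 1.98 in DMD_ND and at 0.546 to 2.04 in DMD_KD, so the genotype labels held in every library. Among wild-type libraries, replicates 3 and 9 had the higher levels of Dmd, Ankrd1 and Xirp2 and the larger size factors (0.884 and 0.769 against 0.517 and 0.649), and the part of this in the results was not tested. DMD_KD replicate 3 stood apart, at a root mean square distance of 0.597 log2 units from the mean of its group's other libraries over all genes tested, where the other 15 libraries lay at 0.213 to 0.389, so results on DMD_KD were also computed without it. Each of the 7 genes rested on many reads, the fewest being 69 for Ankrd1 in a wild-type library. Across libraries the median was 15380 reads for Ankrd1, 1079 for Ankrd2, 42742 for Ankrd23, 2266 for Csrp3, 40877 for Fhl1, 8376 for Xirp1 and 24499 for Xirp2. The annotation placed no gene with reads on top of any of them. An unnamed small RNA gene of the U6 family lay inside Fhl1 and the snoRNA Gm23328 inside Xirp2, both at 0 reads.

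**Figure D1:**
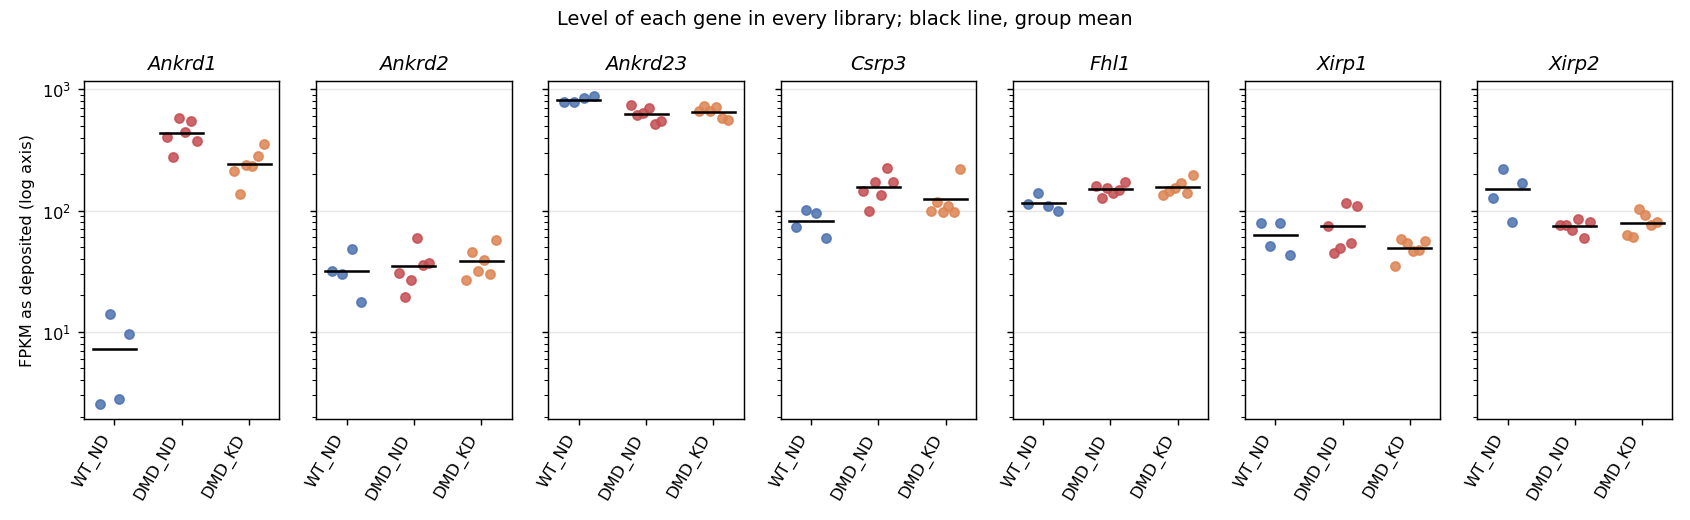
FPKM as deposited (log axis) of the 7 genes in each of the 16 libraries, 1 point a library, with a black line at the group mean. Ankrd1 lies between 2.55 and 13.9 in WT_ND and between 278 and 576 in DMD_ND, while the groups of each other gene lie close together or overlap.

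In wild-type muscle Ankrd23 led and Ankrd1 came last. Mean levels per kilobase fell in the order Ankrd23 (821 FPKM), Xirp2 (149), Fhl1 (115), Csrp3 (82.4), Xirp1 (63.1), Ankrd2 (31.8) and Ankrd1 (7.22). Ankrd23 and Ankrd1 were set off from their neighbours in all 4 libraries, and the ranges of the other 4 neighbouring pairs overlapped. In DMD_ND the order was Ankrd23 (627), Ankrd1 (436), Csrp3 (158), Fhl1 (150), Xirp2 (74.5), Xirp1 (74.4) and Ankrd2 (34.8). Ankrd1 now stood second, apart from Csrp3 in 6 of 6 libraries, and Fhl1 was clear of Xirp2. The other 4 neighbouring pairs overlapped there. In DMD_KD the order was Ankrd23 (654), Ankrd1 (242), Fhl1 (156), Csrp3 (123), Xirp2 (78.9), Xirp1 (49.4) and Ankrd2 (38.5), and again 4 of 6 neighbouring pairs overlapped.

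DMD_ND against WT_ND asks what the Dmd genotype changed in muscle on the normal diet. On the log2(FPKM + 1) scale Ankrd1 had the largest rise of all 12119 genes tested, and Csrp3 and Fhl1 rose as well. That scale understates the fold changes of low genes, and the rank was not computed on another. Ankrd23 and Xirp2 fell, and Ankrd2 and Xirp1 did not pass the test. Of the 7 genes 5 were called at an adjusted p under 0.05 (limma, Benjamini-Hochberg over all genes tested), 3 higher and 2 lower, where 65.7% of all genes tested were called, 31.5% higher and 34.3% lower. A share of members near that background is no result about the members, so single genes are described. RNA came from whole muscle, in which fewer cells of a type and less RNA per cell cannot be told apart.

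Ankrd1 (ENSRNOG00000018598, chromosome 1, 233815851 to 233834919, minus strand, mRatBN7.2) stood at 2.55, 13.9, 2.80 and 9.61 FPKM in WT_ND replicates 1, 3, 4 and 9. In DMD_ND it ran from 278 to 576 with a median of 421. Every DMD_ND library lay above every WT_ND library. Genes without overlap in this direction made up 26.8% of those tested. The difference was 62.4-fold (log2 5.96, SE 0.36, limma adjusted p = 8.02e-10). Mean and SD were 7.22 ± 5.54 FPKM (n = 4) and 436 ± 111 (n = 6).

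Ankrd23 (ENSRNOG00000016151, chromosome 9, 38773240 to 38779839, minus strand), the most abundant of the 7, moved the other way. It stood at 781, 779, 850 and 873 FPKM in the WT_ND libraries and at 517 to 741 with a median of 627 in DMD_ND. The groups did not overlap, as for 28.3% of genes in this direction, and DMD_ND was 1.32-fold lower (log2 -0.40, SE 0.13, limma adjusted p = 0.0150). Ankrd2 (ENSRNOG00000013840, chromosome 1, 240847072 to 240856566, plus strand) stood at 31.5, 30.0, 48.2 and 17.7 FPKM in WT_ND and at 19.4 to 59.3 with a median of 33.1 in DMD_ND. The Ankrd2 ranges lay almost on top of each other, and the difference of 0.13 on the log2 scale (95% confidence interval -0.48 to 0.73) did not pass the test (limma adjusted p = 0.714).

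Taken as a family, the ankyrin repeat genes changed in make-up more than in sum at the deposited scaling. Their summed level had a median of 862 FPKM in WT_ND, 1136 in DMD_ND and 926 in DMD_KD. In WT_ND, Ankrd1 gave 0.846% ± 0.667 (SD, n = 4) of that sum. Its share was 39.4% ± 7.35 (n = 6) in DMD_ND, against 25.9% ± 7.39 (n = 6) on the MCTKD diet. Ankrd23 gave 95.4%, 57.5% and 70.04% in the same order of groups, and Ankrd2 3.70%, 3.16% and 4.10%. In the DMD_ND library with the largest share of Ankrd1, 49.6% of the sum was Ankrd1, and in the lowest it was 30.4%, still far above the highest wild-type share of 1.69%. In a single DMD_ND library of 6 Ankrd1 exceeded Ankrd23. Shares within a library do not depend on how libraries are scaled, but the sums do. With every library given the same total, Ankrd23 was higher in DMD_ND than in WT_ND (log2 0.62, limma adjusted p = 0.00145). The sums were not computed on that scale.

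**Figure D2:**
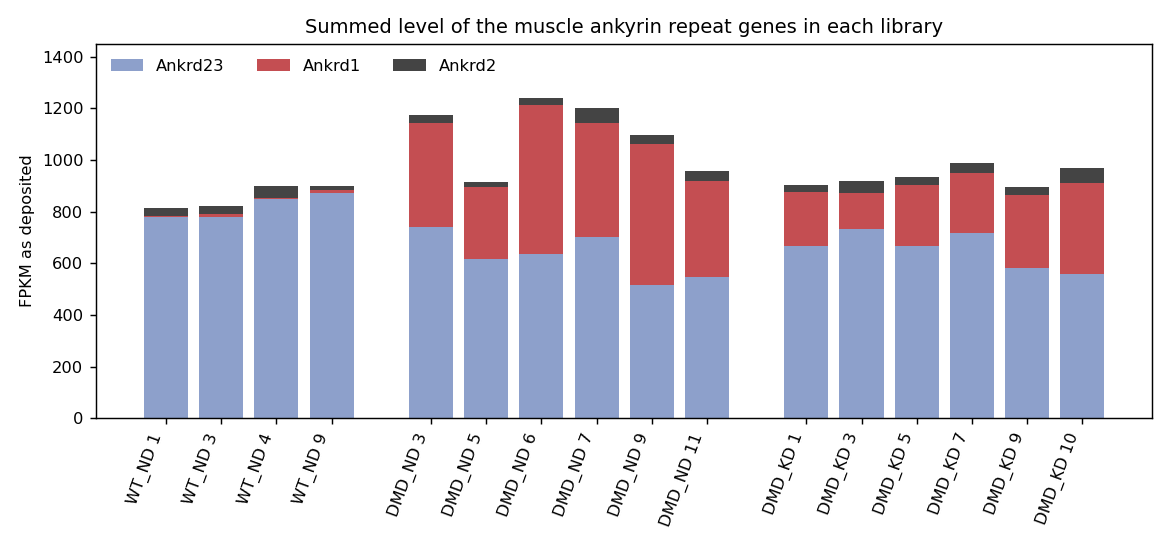
Summed FPKM (as deposited) of Ankrd23, Ankrd1 and Ankrd2 in each library, stacked from 0 and labelled by group and replicate. The Ankrd1 segment is 0.311% to 1.69% of the bar in WT_ND, 30.4% to 49.6% in DMD_ND and 15% to 36.4% in DMD_KD.

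The LIM genes were both higher in dystrophic muscle. Csrp3 (ENSRNOG00000014327, chromosome 1, 98528068 to 98546653, minus strand) stood at 73.4, 101, 95.5 and 59.9 FPKM in WT_ND and ran from 99.0 to 225 with a median of 158 in DMD_ND. Of the DMD_ND libraries 5 of 6 lay above all wild-type ones. The rise was 1.89-fold (log2 0.91, SE 0.25, limma adjusted p = 0.00353). Fhl1 (ENSRNOG00000000875, chromosome X, 134555479 to 134614928, plus strand) stood at 113, 138, 109 and 99.9 FPKM in WT_ND and at 128 to 173 with a median of 150 in DMD_ND. Again 5 of 6 libraries lay above the wild-type range, whose top was replicate 3. The rise was 1.30-fold (log2 0.38, SE 0.13, limma adjusted p = 0.0187) and was no longer called without WT_ND replicate 9 (limma adjusted p = 0.0661).

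Of the Xin genes Xirp2 fell and Xirp1 did not pass the test, and the ratio of both within libraries did not pass either (exact permutation, adjusted p = 0.0857). Xirp2 (ENSRNOG00000034258, chromosome 3, 51870092 to 52213091, plus strand) stood at 128, 221, 81.0 and 168 FPKM in WT_ND and at 59.0 to 85.9 with a median of 76.7 in DMD_ND. Wild-type replicate 4 lay inside the DMD_ND range, and 5 of 6 DMD_ND libraries lay below all wild-type ones. The fall was 1.88-fold (log2 -0.91, SE 0.22, limma adjusted p = 0.00160). Xirp1 (ENSRNOG00000037085, chromosome 8, 119747419 to 119757349, minus strand) stood at 78.6, 51.5, 78.9 and 43.2 FPKM in WT_ND and at 45.0 to 116 with a median of 63.8 in DMD_ND. In Xirp1, 2 of 6 DMD_ND libraries lay above the wild-type range and the rest within it. The difference of 0.18 (95% confidence interval -0.37 to 0.74, limma adjusted p = 0.554) did not pass the test.

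The direction of the smaller changes depends on the scaling. The deposited values are scaled so that the typical gene is level between libraries (median of all genes -0.04 in DMD_ND against WT_ND). If every library is instead given the same total (TPM), the median of all genes moves to 0.83, with 8564 genes called higher and 720 lower in place of 3815 and 4152. On that scale Ankrd1 rose by 7.002, Csrp3 by 1.93 and Fhl1 by 1.395 on the log2 scale. Ankrd23 was then higher at 0.62 (limma adjusted p = 0.00145) and Xirp2 was at 0.09 (limma adjusted p = 0.790). Relative to the median gene of that scale Ankrd23 lay at -0.21 and Xirp2 at -0.73, so both still ran below the typical gene. Ankrd2 at 1.13 and Xirp1 at 1.19 were called higher under TPM (limma adjusted p = 0.00177 and 0.000315), or 0.30 and 0.37 above the median gene.

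DMD_KD against DMD_ND asks what the MCTKD diet changed in dystrophic muscle. None of the 7 genes was called by limma, where 0.00825% of all genes tested were called, which is 1 gene. At an unadjusted p under 0.05 limma counted 2 of the 7, Ankrd1 and Xirp1, both lower in DMD_KD, where 14.3% of all genes reached this. The voom form of limma on the recovered reads called 0 of the 7 too.

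Ankrd1 ran from 138 to 353 FPKM with a median of 234 in DMD_KD, against 278 to 576 in DMD_ND. The ranges overlapped, and 4 of 6 DMD_KD libraries lay below all DMD_ND libraries. Ankrd1 was 1.81-fold lower (log2 -0.86, SE 0.32), which did not pass over all genes (limma adjusted p = 0.263). Tested alone, by an exact two-sided permutation over 924 relabellings, its unadjusted p was 0.00649. Without DMD_KD replicate 3 the log2 difference was -0.71 (limma adjusted p = 0.418), and over all 16 choices of a left-out library it lay between -0.98 and -0.71. Xirp1 ran from 34.7 to 57.7 FPKM with a median of 50.8 in DMD_KD. It was 1.42-fold lower than in DMD_ND (log2 -0.50, SE 0.24, limma adjusted p = 0.348; exact two-sided permutation, unadjusted p = 0.0974).

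The other members did not pass the test between the diets. Csrp3 ran from 96.5 to 220 FPKM with a median of 104 in DMD_KD, a log2 difference of -0.38 (95% confidence interval -0.84 to 0.09, limma adjusted p = 0.418). Of the DMD_KD libraries 5 of 6 lay at or below 119, and replicate 10 alone reached 220. Of the 6, 3 lay below every DMD_ND library, and without replicate 10 the difference was -0.56 (limma adjusted p = 0.165). Ankrd23 ran from 559 to 734 FPKM in DMD_KD (difference 0.07, interval -0.19 to 0.32), and Ankrd2 from 26.6 to 57.7 (0.17, interval -0.37 to 0.71). Fhl1 ran from 133 to 196 FPKM (difference 0.05, interval -0.20 to 0.30) and Xirp2 from 60.2 to 102 (0.07, interval -0.35 to 0.48). These 4 intervals exclude a 2-fold change in either direction, and limma adjusted p-values were 0.807, 0.758, 0.858 and 0.889. Without DMD_KD replicate 3 the differences were -0.38 for Csrp3, 0.03 for Ankrd23, 0.11 for Ankrd2, 0.07 for Fhl1, 0.14 for Xirp2 and -0.55 for Xirp1, and none was called. Under TPM, where the median of all genes moved from -0.01 to -0.24, all 4 differences turned negative, to -0.20 for Ankrd23, -0.09 for Ankrd2, -0.22 for Fhl1 and -0.20 for Xirp2.

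DMD_KD against WT_ND shares its samples with the other comparisons and sets mutant muscle on the MCTKD diet beside wild-type muscle on the normal diet. Of the 7 genes 4 were called by limma, 2 higher and 2 lower, where 58.3% of all genes tested were called, 27.3% higher and 31.1% lower. Ankrd1 was 34.4-fold higher (log2 5.10, SE 0.36, limma adjusted p = 6.22e-09), with rank 3 among the rises of all genes on the log2(FPKM + 1) scale. Every DMD_KD library lay above every WT_ND library for Ankrd1, as for 20% of genes in this direction. Fhl1 was 1.35-fold higher (log2 0.43, SE 0.13, limma adjusted p = 0.0107). Xirp2 was 1.80-fold lower (log2 -0.84, SE 0.22, limma adjusted p = 0.00356), with 4 of 6 DMD_KD libraries below all wild-type ones.

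Ankrd23 was 1.26-fold lower in DMD_KD than in WT_ND (log2 -0.33, SE 0.13, limma adjusted p = 0.0419). Its groups did not overlap, as for 17.3% of genes in this direction. This call was lost in 10 of 16 fits that left out a library, with adjusted p from 0.0178 to 0.0940, and with TPM scaling Ankrd23 was higher at 0.41 (limma adjusted p = 0.0252) against a median of all genes of 0.56. Csrp3 did not pass at 0.54 (95% confidence interval 0.02 to 1.06, limma adjusted p = 0.0700), nor did Ankrd2 at 0.30 or Xirp1 at -0.32 (limma adjusted p = 0.392 and 0.316). Without DMD_KD replicate 3 the 4 calls remained, at 5.25 for Ankrd1, 0.45 for Fhl1, -0.77 for Xirp2 and -0.37 for Ankrd23. Under TPM Xirp2 was no longer called at -0.11 (limma adjusted p = 0.779), Xirp1 was at 0.42, and Csrp3 and Ankrd2 became called, at 1.28 and 1.03 (limma adjusted p = 0.00143 and 0.00451). On that scale 6930 genes were called higher and 573 lower, in place of 3304 and 3764.

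**Figure D3:**
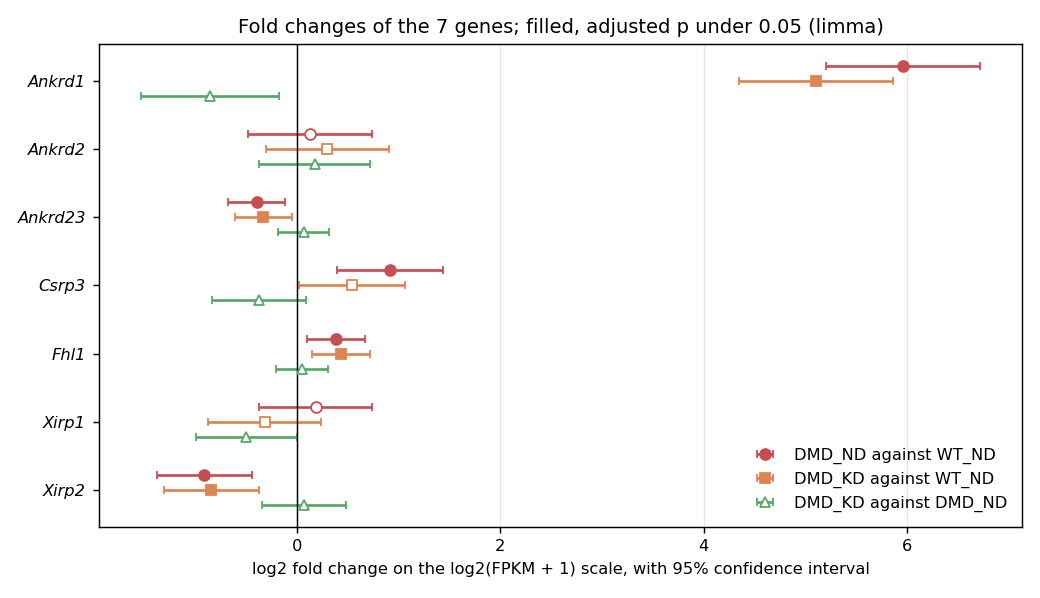
Log2 fold change with its 95% confidence interval for each of the 7 genes, on the log2(FPKM + 1) scale, in DMD_ND against WT_ND (circles), DMD_KD against WT_ND (squares) and DMD_KD against DMD_ND (triangles); filled symbols have a limma adjusted p under 0.05. Ankrd1 sits at 5.96 and 5.10 against WT_ND, all other genes lie between -0.91 and 0.91, and no triangle is filled.

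Ratios of 2 members within a library do not depend on how libraries are scaled, apart from the pseudocount of 1 FPKM. In the log2 ratio of Ankrd1 over Ankrd23, WT_ND averaged -6.92 ± 1.05 (SD, n = 4). On the same scale DMD_ND stood at -0.55 ± 0.46 (n = 6), and DMD_KD stood at -1.48 ± 0.59 (n = 6). DMD_ND exceeded WT_ND by 6.36 (exact two-sided permutation p = 0.00476, the smallest of 210 relabellings, adjusted p = 0.0179 over 15 ratio tests). DMD_KD against DMD_ND differed by -0.92 (exact permutation p = 0.0173, adjusted p = 0.0433). The latter call was lost in 8 of 16 choices of a left-out library, and without DMD_KD replicate 3 the difference was -0.74 (exact permutation, adjusted p = 0.0568).

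For Ankrd1 over Ankrd2 the log2 ratio was -2.19 ± 1.47 (mean and SD, n = 4) for WT_ND. It was 3.65 ± 0.51 (n = 6) for DMD_ND, against 2.62 ± 0.57 (n = 6) for DMD_KD. The differences were 5.84 for DMD_ND against WT_ND (exact permutation, adjusted p = 0.0179) and -1.03 for DMD_KD against DMD_ND (exact permutation p = 0.00649, adjusted p = 0.0195). The second kept its side of the threshold in all 16 choices of a left-out library, with adjusted p from 0.0232 to 0.0390. So Ankrd1 was lower against Ankrd2 on the MCTKD diet, although its own level did not pass the test over all genes. Ankrd2 over Ankrd23 differed by 0.52, 0.11 and 0.63 in the 3 comparisons and passed in none (exact permutation, adjusted p = 0.208, 0.712 and 0.123).

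The ratios of the other families did not pass after adjustment. Xirp1 over Xirp2 differed by 1.10 in DMD_ND against WT_ND (exact permutation p = 0.0571, adjusted p = 0.0857) and by -0.57 in DMD_KD against DMD_ND (exact permutation p = 0.0411, adjusted p = 0.0758). Without DMD_KD replicate 3 the latter was -0.69 and passed (exact permutation, adjusted p = 0.0433). Csrp3 over Fhl1 differed by 0.53 in DMD_ND against WT_ND (exact permutation p = 0.0286, adjusted p = 0.0612) and by -0.43 in DMD_KD against DMD_ND (exact permutation p = 0.0455, adjusted p = 0.0758). Against WT_ND the DMD_KD ratios of these families differed by 0.53 and 0.10 (exact permutation, adjusted p = 0.291 and 0.658).

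**Figure D4:**
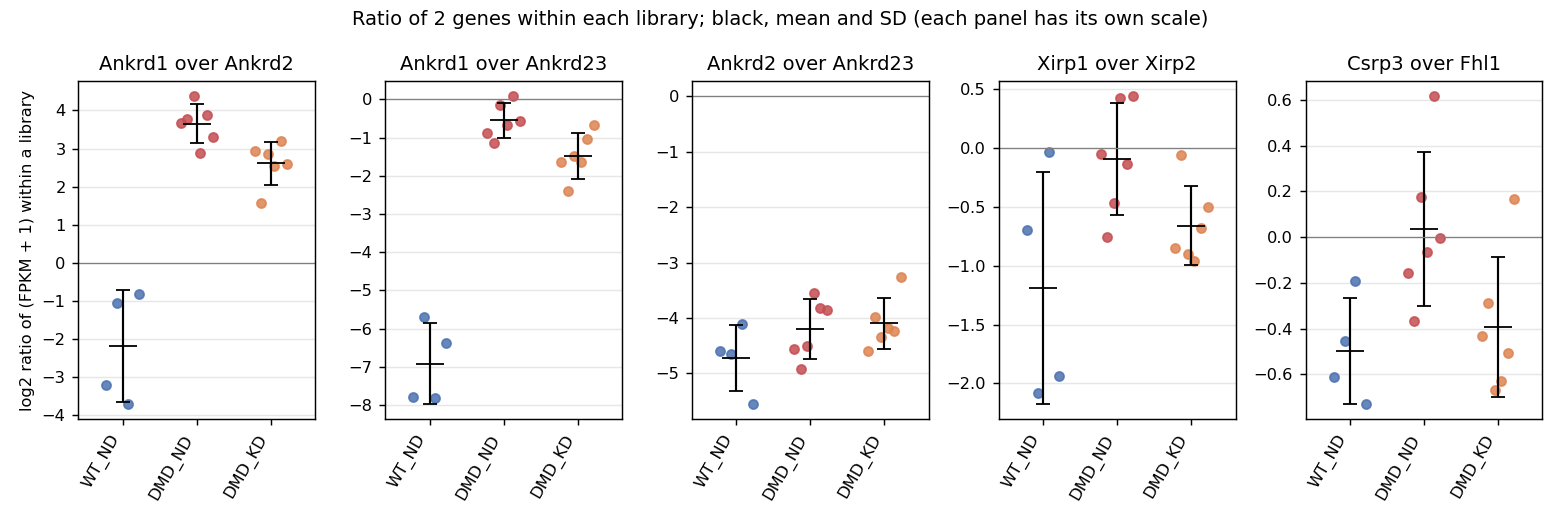
Log2 ratio of (FPKM + 1) of 2 genes within each library, 1 point a library, with group mean and SD in black; each panel has its own vertical scale. Ankrd1 over Ankrd2 and Ankrd1 over Ankrd23 separate WT_ND from both mutant groups without overlap, and the remaining ratios overlap between groups.

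Within groups the members did not vary as 1 block. With each group's mean removed, over all 16 libraries, Ankrd2 and Xirp1 ran together most closely (Pearson r = 0.786, Spearman rho = 0.838), also within DMD_ND (r = 0.818) and within DMD_KD (r = 0.725). Csrp3 and Fhl1 followed at r = 0.729 and rho = 0.691. Ankrd2 and Csrp3 had r = 0.615, and Ankrd23 and Csrp3 had r = -0.515. Ankrd1 and Xirp2 had r = 0.618, with r = -0.566 within DMD_ND and r = 0.515 within DMD_KD, and in WT_ND replicates 3 and 9 were the highest in both genes. Without DMD_KD replicate 3 these 5 values were 0.780, 0.739, 0.624, -0.548 and 0.572. All points share the libraries and their scaling, and the values are descriptions.

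**Figure D5:**
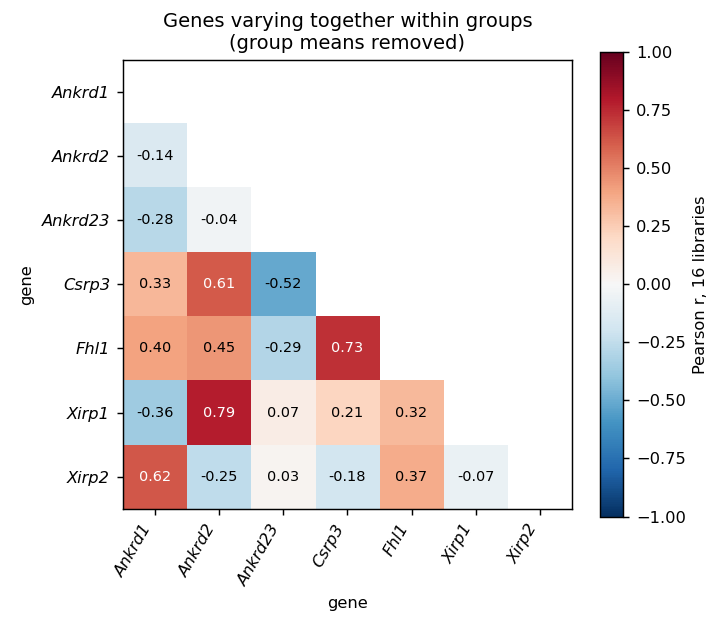
Pearson r between pairs of the 7 genes over 16 libraries after the group means were removed from log2(FPKM + 1), on a colour scale from -1 to 1. The strongest positive squares are Ankrd2 with Xirp1 (0.79) and Csrp3 with Fhl1 (0.73), and the strongest negative one is Ankrd23 with Csrp3 (-0.52).

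The genes whose variation within groups was most like each member's were sought among 5780 other protein-coding genes with a mean of at least 5 FPKM, over the same 16 libraries. For Ankrd1 they were Mapk8ip3 (r = 0.939), Impact (0.930) and Entr1 (0.924). For Xirp2 they were Chpt1 (0.935), Dst (0.934), which encodes the cytoskeletal linker dystonin, and Synj2bp (0.926). For Xirp1 they included Gspt1 (0.877) and Fam98a (0.848). For Ankrd2 they were Sec24b (0.814), Gpat3 (0.762) and Adgrg1 (0.760), and for Ankrd23 they included Dcaf8 (0.818) and Phkg1 (0.806), the catalytic subunit of muscle phosphorylase kinase. For Fhl1 they were Cat (0.785), which encodes catalase, Acadl (0.735), an enzyme of fat oxidation, and Ppip5k1 (0.734). For Csrp3 they were Tmbim1 (0.747), Sln (0.737), which encodes the calcium pump regulator sarcolipin, and Mustn1 (0.734). Leaving out DMD_KD replicate 3 raised Sec24b with Ankrd2 to 0.928 and Cat with Fhl1 to 0.888, and moved others down the order, to rank 9 and 10 for Chpt1 and Dst with Xirp2, 8 and 9 for Gpat3 and Adgrg1 with Ankrd2, 10 for Phkg1 with Ankrd23 and 7 for Acadl with Fhl1. The genes named for Ankrd1 kept ranks 1 to 3, and those for Csrp3 stayed the same 3. For the other members the names were not a stable top 3. In WT_ND the SD was 76.7% of the mean for Ankrd1 and 39.7% for Xirp2. It was 25.5% and 12.6% in DMD_ND, and 29.7% and 20.5% in DMD_KD. Wild-type libraries therefore weigh most in the r values of Ankrd1 and Xirp2. No r within single groups was computed for the genes named.

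Titin and most Z-disc genes that these proteins bind or neighbour were lower in mutant muscle at the deposited scaling. In DMD_ND against WT_ND 20 of 24 tested were lower, none was higher, and 4 (Myoz2, Des, Synpo2l and Pdlim3) were not called. Among all genes tested 34.3% were lower and 31.5% higher. The median log2 difference of the list was -1.06 beside -0.04 for all genes tested. Ttn, named here as the binding partner and after its values were seen, fell by 1.36 on the log2 scale, from a mean of 144 FPKM to 55.9 (limma adjusted p = 4.27e-06). Tcap, which encodes the titin cap protein telethonin, fell by 1.88 from 6039 ± 1029 FPKM (SD, n = 4) to 1629 ± 123 (n = 6, limma adjusted p = 7.52e-07). Myoz3 fell by 1.46, Synpo2 by 1.55 and Myot, the gene of the Z-disc protein myotilin, by 1.25. In DMD_KD against DMD_ND none of the 24 was called (median 0.23). In DMD_KD against WT_ND 19 were lower, where 31.1% of all genes tested were lower. Under TPM the fall of this list was not general: 8 of 24 were higher and 8 lower (median -0.05, with all genes at 0.83). On that scale 8564 of all 12119 genes tested were higher and 720 lower. Tcap, Myoz3 and Synpo2 were still lower, and Ttn (-0.36, limma adjusted p = 0.144) and Myot (-0.24, limma adjusted p = 0.213) were no longer called. In DMD_KD against WT_ND 4 were then higher and 5 lower, beside 6930 and 573 of all 12119 genes tested.

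Other LIM genes were split. Of 13 tested 7 were higher, 4 lower and 2 not called in DMD_ND against WT_ND (median 0.34). Of all genes tested 31.5% were higher and 34.3% lower. Fhl2, a paralog of Fhl1 known from the heart, rose by 2.23 on the log2 scale from 0.781 ± 0.294 FPKM (SD, n = 4) to 7.30 ± 0.804 (n = 6, limma adjusted p = 3.61e-10). Fhl3, the paralog best known from skeletal muscle, fell by 1.80 from 159 ± 22.1 to 44.7 ± 6.12 FPKM (limma adjusted p = 1.65e-07). Both kept their direction under TPM, at 3.28 and -0.81. Tgfb1i1 rose by 0.83 and Lmcd1 fell by 0.94, the latter not under TPM (0.06). With TPM 10 of the 13 were higher and 1 lower, beside 8564 of all 12119 genes tested higher and 720 lower. In DMD_KD against DMD_ND no LIM gene of the list was called, and Fhl3 stood at 71.0 ± 19.7 FPKM in DMD_KD (log2 difference 0.62, limma adjusted p = 0.140).

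Ankrd1 is widely used as a readout of the YAP and TEAD pathway, in which the coactivators YAP and TAZ act with TEAD factors. Of 20 other genes of that pathway tested 10 were higher, 4 lower and 6 not called in DMD_ND against WT_ND (median 0.24), beside 31.5% of all genes higher and 34.3% lower. Ccn2, another common target, rose by 3.25 on the log2 scale from 8.70 ± 2.84 FPKM (SD, n = 4) to 91.1 ± 24.3 (n = 6, limma adjusted p = 1.10e-07). Axl, a receptor kinase and target, rose by 2.05, and Wwtr1, which encodes TAZ, by 1.14. The cofactor gene Vgll2 fell by 1.73 from 68.1 ± 12.2 to 19.7 ± 2.72 FPKM (limma adjusted p = 2.02e-07). Tead1, named after its values were seen and the gene of a TEAD factor, fell by 2.20 from a mean of 19.8 to 3.79 FPKM (limma adjusted p = 1.13e-06). These 5 genes kept their direction under TPM, where 16 of 20 were higher and 2 lower. Of all 12119 genes tested 8564 were higher and 720 lower on that scale. None of the 20 was called in DMD_KD against DMD_ND (median -0.07), where Ccn2 had a log2 difference of -0.57 (limma adjusted p = 0.358). Against WT_ND 9 were higher and 3 lower in DMD_KD, beside 27.3% of all genes tested higher and 31.1% lower.

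Of 18 tested genes of the SRF and MRTF pathway, which couples actin assembly to transcription, 11 were higher, 4 lower and 3 not called in DMD_ND against WT_ND (median 0.83). Of all genes tested 31.5% were higher and 34.3% lower. Flna rose by 1.27, Tpm4 by 1.63, Cnn2 by 1.81 and Myh9 by 0.88 on the log2 scale, all genes of the non-muscle cytoskeleton. Egr1, an early response gene, was higher by 1.89 (limma adjusted p = 0.00920) and varied from 10.3 to 106 FPKM among the DMD_ND libraries. The 4 that were lower, named after their values were seen, were the factor genes Srf (-0.51, limma adjusted p = 0.0331) and Mrtfb (-0.68, limma adjusted p = 0.00105) and the sarcomere genes Acta1 (-1.28) and Tpm1 (-1.17). Under TPM 14 of 18 were higher and none lower, with Srf then higher at 0.47. Of all 12119 genes tested 8564 were higher and 720 lower on that scale. None of the 18 was called in DMD_KD against DMD_ND (median -0.21).

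Most markers of macrophages, fibroblasts and regenerating fibres were higher in DMD_ND than in WT_ND. Among all genes tested 31.5% were higher and 34.3% lower, with a median log2 difference of -0.04. All 14 macrophage markers were higher in DMD_ND than in WT_ND (median 2.73), with a summed level of 28.1 to 70.3 FPKM in WT_ND, 455 to 887 in DMD_ND and 414 to 671 in DMD_KD. All 12 markers of fibroblasts and fibro-adipogenic progenitors were higher (median 2.36), with sums of 173 to 386, 1809 to 3109 and 1435 to 2337 FPKM. Of 12 markers of regenerating fibres 10 were higher (median 2.83), among them the neonatal myosin gene Myh8, at a log2 difference of 2.95, and the fusion gene Mymk, at 4.66. Their sums were 137 to 214, 511 to 744 and 413 to 682 FPKM. These 3 lists kept their direction under TPM, where 8564 of all 12119 genes tested were higher and 720 lower. Their medians were then 3.785, 3.417 and 3.938, beside 0.83 for all genes. The part of these lists in the rise of Ankrd1, Csrp3 and Fhl1 was not tested.

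Most genes of fast fibres fell. Of 10 fast fibre genes 8 were lower and none higher in DMD_ND against WT_ND (median -1.20), and Myh2 fell by 2.35 on the log2 scale. The summed level of the fast list ran from 47820 to 79030 FPKM in WT_ND (median 62750), 25430 to 38210 in DMD_ND (median 33850) and 29100 to 86830 in DMD_KD (median 41610). Of 11 slow fibre genes 5 were lower and 2 higher (median -0.37), with Myl3 down by 2.55 and Casq2 up by 3.39. Under TPM 2 fast genes were higher and 3 lower, and 7 slow genes were higher and 1 lower. Of all 12119 genes tested 3815 were higher and 4152 lower at the deposited scaling, and 8564 and 720 under TPM. The part of fibre type in the levels of Ankrd2, Ankrd23 and Xirp2 was not tested. Since Ankrd1, Csrp3 and Fhl2 are also heart genes, defining markers of cardiac muscle were examined. The 8 of them summed to 0.374 to 1.39 FPKM in WT_ND, 0.671 to 1.47 in DMD_ND and 0.443 to 1.41 in DMD_KD, with Nppa, Nppb, Myl7, Tnni3, Tbx5 and Nkx2-5 at 0 in every WT_ND library and Nkx2-5 at 0 in every library. The single one that could be tested, Myh6, did not differ past the test (limma adjusted p = 0.604).

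In DMD_ND against WT_ND 7 of 8 adipocyte markers were higher and 1, Plin4, was lower (median 1.63). Of 11 smooth muscle and pericyte markers 6 were higher and 2 lower, of 9 endothelial markers 2 were higher and 2 lower, of 7 satellite cell markers 2 were higher and 1 lower, and of 5 Schwann cell and nerve markers 2 were higher and none lower. Under TPM these 4 lists had 8, 7, 7 and 5 genes higher and 2, 0, 0 and 0 lower, and the adipocyte list kept its count. Of all genes tested 31.5% were higher and 34.3% lower at the deposited scaling, and under TPM 8564 of 12119 were higher and 720 lower. A count near that background is no result about the list. No marker of any of these lists was called in DMD_KD against DMD_ND, where the medians of the adipocyte, fibroblast and macrophage lists were -0.59, -0.32 and -0.18. Without DMD_KD replicate 3 none was called either.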

How the data were processed

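Total RNA of frozen tibialis anterior was enriched for mRNA on poly-T beads and copied from random hexamers, per the labels' protocols, which name a directional and a non-directional library and not which was made. Alignment and counting tools, per the submitters' processing notes, were HISAT2 2.0.5 and featureCounts 1.5.0-p3, with the build mRatBN7.2. Not given in the sources used here are the annotation release and the handling of reads that match several places. The authors deposited FPKM values for 31141 genes in 16 libraries, with gene lengths and positions, per the file headers. FPKM times gene length gave whole reads for 100% of values (within 0.05), and the implied library sizes were already scaled between libraries by a size factor, checked on the file.

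Fhl1 was identified by its description. The test was limma 3.58.1 (R 4.3.3, eBayes with trend and robust options) on log2(FPKM + 1), fitted to group means of all 16 libraries for 12119 genes that reached 1 FPKM in 4 or more libraries, with Benjamini-Hochberg adjustment over all of them. Fold changes on this scale understate those of low genes. Ratios of members were tested by exact two-sided permutation with scipy 1.17.1 (Python 3.11.15). The fit was tested on simulated data. Alternatives were other pseudocounts, filters and scalings, limma variants, voom on the recovered reads, a replicate block and each library left out. The members and the gene lists were chosen with earlier results of these data known. Named genes are every member, Dmd, per list up to 4 genes with the smallest p in DMD_ND against WT_ND and the called gene with the largest fold change, and the 3 genes most like each member. A few genes named by this rule are left out and not reported here.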

Additional observations from a re-analysis of the deposited data

Results flagged for a closer look

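Csrp3 in DMD_KD replicate 10 was at 220.2 FPKM and stood far from the other 5 libraries of its group, which lay between 96.5 and 119 FPKM (gap to the nearest library 0.821 of the group's whole range). Of 21 groups of a member's values tested, this was the single one with such a library, and chance alone gives about 1 in 20. The same library had the highest Fhl1, Ankrd1 and Ankrd2 values of its group, at 196, 353 and 57.7 FPKM, and the lowest Ankrd23 value, at 559. Without it the Csrp3 difference between DMD_KD and DMD_ND was -0.56 on the log2 scale (limma adjusted p = 0.165) in place of -0.38.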

How the results depend on the processing

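The calls of Ankrd1, Csrp3 and Xirp2 in DMD_ND against WT_ND held in all 16 fits that left out a library, with log2 differences of 5.65 to 6.34, 0.77 to 1.04 and -1.17 to -0.69. With a mean of at least 5 FPKM required, 4361 genes were called in DMD_ND against WT_ND and 3950 in DMD_KD against WT_ND, from 6244 tested in place of 12119. For DMD_KD against DMD_ND 2 genes were called with only the 2 groups compared and 93 with array weights, none of them members, and 1 to 7 with a library left out (2 without DMD_ND replicate 7, 7 without DMD_KD replicate 9). Array weights also put Ankrd23 at -0.024 in that comparison; the cause was not tested.

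With the replicate number as a block, 5852 genes and 3 of the 7 members were called in DMD_ND against WT_ND, 5190 and 2 in DMD_KD against WT_ND, and 0 genes between the diets. Ankrd23 at -0.39 and Fhl1 at 0.26 lost their call in the first comparison (limma adjusted p = 0.182 and 0.316), as they did in the second at -0.30 and 0.33. No pairing by number was seen, though so few correlations cannot exclude it. The 9 same-number pairs correlated at -0.656 to 0.407, median 0.0188, and 75 others at -0.631 to 0.661, median 0.00265.

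TPM scaling turned Ankrd23 to 0.62 and Xirp2 to 0.094 in DMD_ND against WT_ND, Ankrd23 to 0.41 and Xirp1 to 0.42 in DMD_KD against WT_ND, and Ankrd2 (-0.092), Ankrd23 (-0.20), Fhl1 (-0.22) and Xirp2 (-0.20) in DMD_KD against DMD_ND. Leaving out 1 library gave -0.12 to 0.35 for Ankrd2 in DMD_ND against WT_ND, and -0.012 to 0.14 for Xirp2 and -0.017 to 0.093 for Fhl1 in DMD_KD against DMD_ND.

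For the ratios it gave, in DMD_ND against WT_ND, 0.80 to 1.48 for Xirp1 over Xirp2 and 0.41 to 0.63 for Csrp3 over Fhl1. In DMD_KD against DMD_ND it gave -1.09 to -0.74 for Ankrd1 over Ankrd23, -0.062 to 0.24 for Ankrd2 over Ankrd23, -0.70 to -0.46 for Xirp1 over Xirp2 and -0.54 to -0.31 for Csrp3 over Fhl1. In DMD_KD against WT_ND it gave -0.0082 to 0.21 for Csrp3 over Fhl1 and 0.23 to 0.91 for Xirp1 over Xirp2, and Ankrd2 over Ankrd23 ran from 0.25 to 0.73 in DMD_ND against WT_ND, with no call. Csrp3 over Fhl1 passed without WT_ND replicate 4 or DMD_ND replicate 5 in DMD_ND against WT_ND (exact permutation, adjusted p = 0.0446 and 0.0238), and without DMD_ND replicate 5 or DMD_KD replicate 10 between the diets (0.0397 and 0.0217). Xirp1 over Xirp2 passed without WT_ND replicate 4 in DMD_ND against WT_ND (0.0446), and without DMD_ND replicate 5 or DMD_KD replicate 3 between the diets (0.0284 and 0.0433).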
